A study of Homo sapiens with 1 sample.

Results

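The genes examined here encode the subunits of the hypoxia-inducible factors (HIFs) and the hydroxylases that sense oxygen for them: EPAS1 (HIF-2α), HIF1A, HIF3A, ARNT (HIF-1β), ARNT2, EGLN1, EGLN2 and HIF1AN. The cells were of 786-O, a line derived from a human clear cell renal cell carcinoma (ccRCC), and carried an empty vector, as the control of a study of DPF3a, a SWI/SNF subunit. Their open chromatin had been mapped by ATAC-seq, an assay that tags accessible DNA with the transposase Tn5. A peak was assigned to a gene when its summit, the position of highest read pileup, lay inside the GENCODE gene record or within 100 kb of either end (hg38). This gave 104 peaks, all distinct, of the 88615 on the 24 primary chromosomes. Only 1 library was analysed, so there was no replicate, no group was compared and no p-value is given.

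A HIF transcription factor is a heterodimer of an oxygen-regulated α subunit and a stable β subunit (ARNT or its paralog ARNT2), both of the bHLH-PAS family. In the presence of oxygen, the EGLN prolyl hydroxylases mark the α subunit for capture by the VHL ubiquitin ligase and its destruction, and HIF1AN, the asparaginyl hydroxylase also called FIH, blocks its binding to coactivators. 786-O cells have lost functional VHL and are widely used as a line in which HIF-2α, and not HIF-1α, accumulates. Accessibility is not expression, and a peak list gives neither RNA nor protein levels of these genes.

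The height of each peak is its fold enrichment, the summit pileup over 1 background for the whole genome. The pileup of every peak could be recovered as a whole number, and the range after each fold below is its exact Poisson 95% interval, which covers counting error only. Because the background was not local, regions gained or lost in the genome of this line would shift all their folds. The part of copy number was not tested. The promoter folds of genes within 5 Mb, the member itself included, are given beside those of the members. Where a promoter fold is ranked, it is compared with 1 value per protein-coding gene, the highest promoter fold of that gene. Over the whole list the median fold was 10.8, and 35.7% of peaks had a pileup under 15. As a check of the labelled cell type, the promoters of PAX8 and PAX2, transcription factors of the kidney lineage, had peaks of fold 31.9 (24.6 to 40.9) and 22.7 (16.6 to 30.4). LHX1, another kidney developmental factor, had none, nor had the leukocyte genes PTPRC and CD3E or the hepatocyte gene ALB.

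To show where chromatin was open at these loci, peaks were divided into promoter peaks, with a summit no more than 1 kb before or 100 bp after a transcription start site (TSS) of the gene, intragenic peaks elsewhere in the gene record, and distal peaks outside it. Of the 104 peaks, 12 (11.5%) were at promoters, 32 (30.8%) were intragenic and 60 (57.7%) were distal. Promoter peaks were the highest, with a median fold of 22.2 (range, 5.15 to 54.6) and a median width of 901 bp. Intragenic peaks had a median fold of 10.3 (5.15 to 62.3) and a median width of 566.5 bp, and distal peaks had a median fold of 9.53 (5.15 to 38.1) and a median width of 510 bp. Over the whole list, promoter peaks of protein-coding genes had a median of 21.1, other peaks inside such genes 9.28 and peaks outside them 9.79. The medians around the members were close to these. The distal class is not the same as the last one, because it also takes in peaks at promoters and in bodies of other genes. The pileup was under 15 in 38 of the 104 peaks (35.7% of the whole list), and 13 stood at 5.15, the lowest fold in the list (9.19% of the whole list). A fold of 30 was exceeded by 10 of the 104 and by 13.8% of the whole list.

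**Figure D1:**
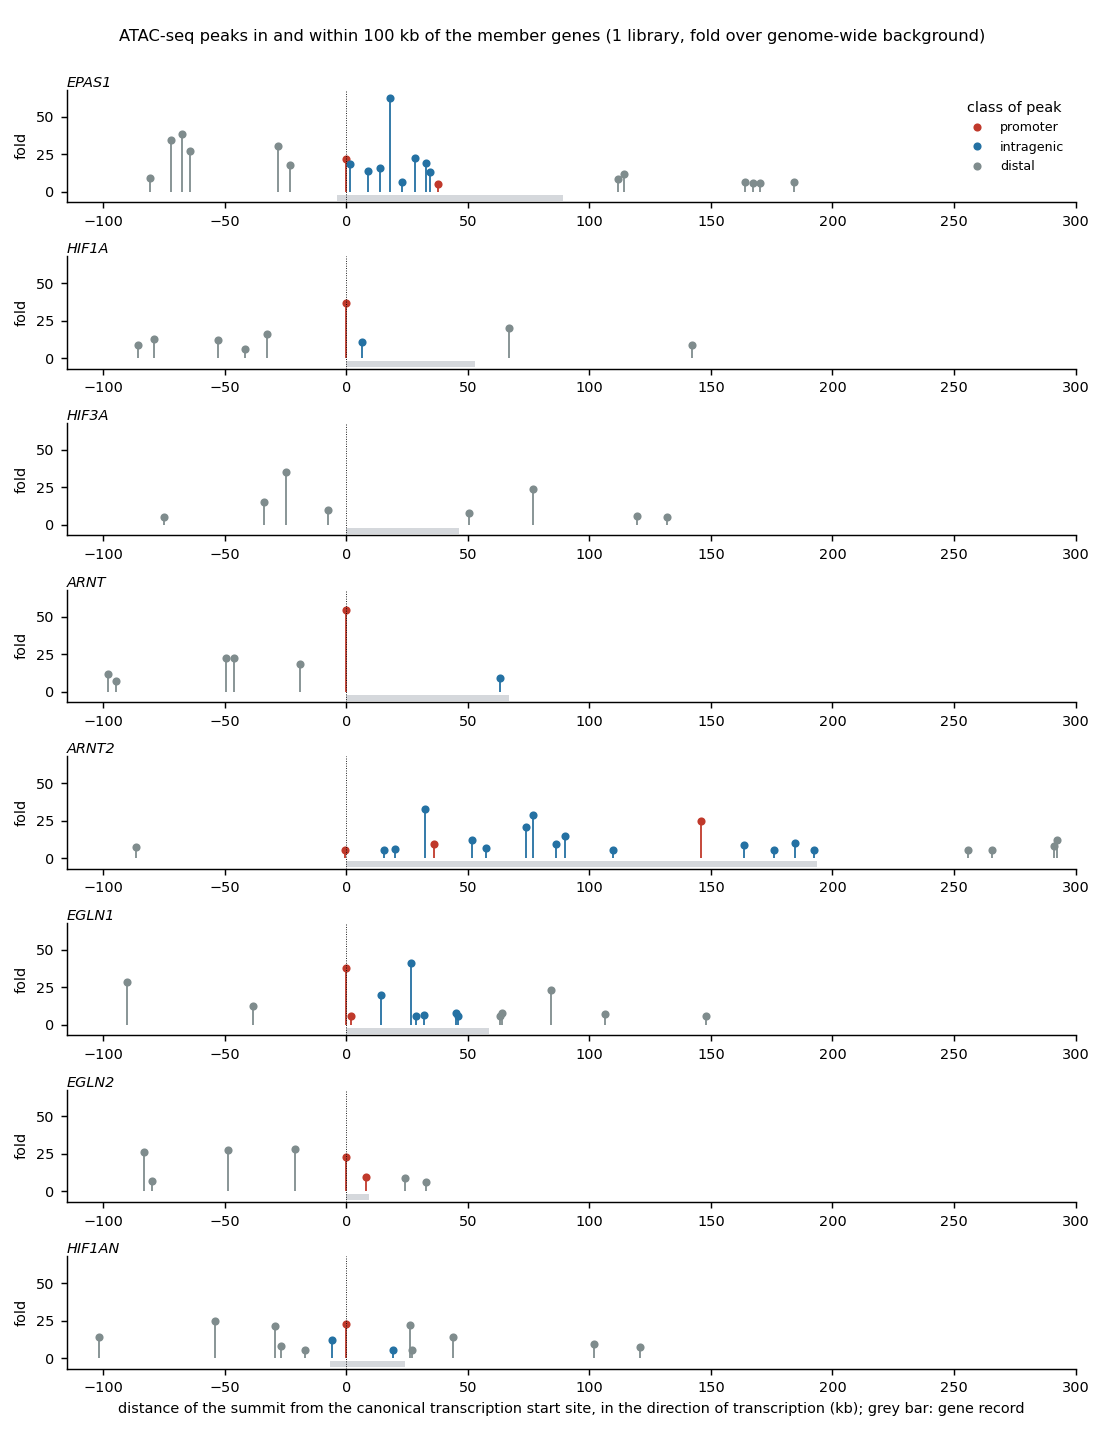
Position and height of the 104 peaks, with 1 panel per gene. The x axis is the distance of the summit from the canonical TSS in the direction of transcription (kb), the y axis is the fold enrichment, the colour is the class of the peak and the grey bar is the gene record. The tallest peak, of fold 62.3, lies inside EPAS1, and HIF3A has no summit in its record or at its promoters.

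The genes differed in how these peaks were arranged. EPAS1 and ARNT2 each had 22 peaks, EGLN1 15, HIF1AN 13, HIF1A 9, HIF3A and EGLN2 8, and ARNT 7. These counts depended on the rule: with a score above 200, EPAS1 had 14 peaks and ARNT2 had 7, and when only peaks with the member as the nearest protein-coding TSS were kept, HIF3A had 2 and ARNT had 1. Per 100 kb of sequence searched, EPAS1 had 7.51 peaks, a density above that of 79.9% of protein-coding genes, which had a median of 4.44. ARNT was the sparsest at 2.62 per 100 kb, above 26.7% of genes. The reach of 100 kb takes in other genes, and 13 of the 60 distal peaks lay at the promoter of another gene, 22 in the body of another gene and 25 in intergenic sequence. For only 17 of the distal peaks was the nearest protein-coding TSS that of the member. A distal peak is therefore given by its position and is not assigned to a target. The outermost summit counted was 98.7 kb from the ARNT2 record, with a fold of 11.9, and the nearest one left out was 100.8 kb from the ARNT record, with a fold of 21.6. Taller peaks lay not far beyond the limit, with folds of 32.5 at 101.1 kb from HIF1A, which is above all distal peaks counted for that gene, and 41.2 at 106.2 kb from EGLN1.

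**Figure D2:**
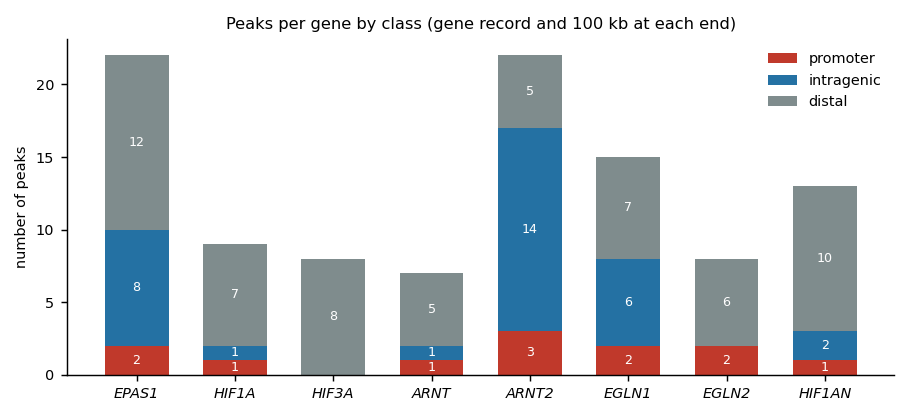
Number of peaks per gene, stacked by class. EPAS1 and ARNT2 have the most peaks, 22 each, and the intragenic class is largest in ARNT2 (14) and EPAS1 (8) and empty in HIF3A and EGLN2.

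Promoters were examined first. A promoter peak was found at 7 of the 8 genes, all but HIF3A, and all 7 had one at the canonical transcript. Among 20033 protein-coding genes, 61.4% had a promoter peak at any transcript and 52.2% at the canonical one. The count of 7 of 8 has an exact (Clopper-Pearson) 95% interval of 47.3% to 99.7%, which includes the background, so a higher share among these genes was not detectable with 8 genes. That interval treats the genes as random draws, whereas they were chosen, so it is only a guide to the small number. In 6 of the 7 the summit lay 123 to 254 bp upstream of the canonical TSS, and in ARNT2 it lay 464 bp upstream.

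The sequences under the promoter summits are given below for 6 genes, as 101 bp of hg38 centred on the summit and written 5′ to 3′ on the strand of the gene, because their folds were the highest at the promoters of these genes. The canonical promoter of ARNT2, at the lowest fold in the list, is left out. Capitals mark matches, on either strand, to short motifs that were searched in every window: the HIF core (ACGTG or GCGTG, the centre of the hypoxia response element) and its longer form TACGTG, which contains the core, AP-1 (TGACTCA or TGAGTCA), ETS (CCGGAAGT), SP/KLF (GGGCGG), NRF1 (GCGCATGC), TEAD (GGAATG), RUNX (TGTGGT), HNF1 (GTTAAT) and CTCF. A match is a string of letters and not evidence of binding, and the CACGTG palindrome also contains the HIF core.
EPAS1, chr2:46297160-46297260 (+ strand): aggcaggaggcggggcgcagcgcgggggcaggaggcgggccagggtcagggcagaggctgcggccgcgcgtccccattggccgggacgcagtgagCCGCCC
HIF1A, chr14:61695282-61695382 (+ strand): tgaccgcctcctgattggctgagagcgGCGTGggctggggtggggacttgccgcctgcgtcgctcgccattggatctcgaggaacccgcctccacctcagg
ARNT, chr1:150876795-150876895 (- strand): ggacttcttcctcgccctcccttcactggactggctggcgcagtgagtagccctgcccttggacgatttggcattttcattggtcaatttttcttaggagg
EGLN1, chr1:231422491-231422591 (- strand): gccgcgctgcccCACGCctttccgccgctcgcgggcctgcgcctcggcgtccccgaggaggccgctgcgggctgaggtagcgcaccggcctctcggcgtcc
EGLN2, chr19:40798894-40798994 (+ strand): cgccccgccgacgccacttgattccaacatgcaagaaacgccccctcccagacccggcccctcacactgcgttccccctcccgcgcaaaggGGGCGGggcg
HIF1AN, chr10:100535770-100535870 (+ strand): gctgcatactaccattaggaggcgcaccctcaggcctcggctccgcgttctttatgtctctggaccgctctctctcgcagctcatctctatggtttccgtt
EPAS1 and EGLN2 each had 1 SP/KLF match, HIF1A and EGLN1 each had 1 HIF core match, and ARNT and HIF1AN had no match to any of the 10 motifs. An SP/KLF match was present within 50 bp of the summit in 32.5% of the promoter peaks of all protein-coding genes and a HIF core in 27.8%.

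By promoter fold at the canonical TSS the genes ran in the order ARNT, EGLN1, HIF1A, EGLN2, HIF1AN, EPAS1 and ARNT2. The ARNT promoter, with a fold of 54.6 (44.8 to 66.0), stood above that of 89.9% of the 10454 genes with a canonical promoter peak, whose median was 26.3 (interquartile range, 16.0 to 39.2). EGLN1 followed at 38.1 (30.0 to 47.8) and HIF1A at 37.1 (29.1 to 46.7). EGLN2 at 23.2 (17.0 to 31.0), HIF1AN at 22.7 (16.6 to 30.4) and EPAS1 at 21.6 (15.7 to 29.2) lay slightly below the median. ARNT2 was last at 5.15 (2.64 to 9.32), the lowest fold that the list contains. Neighbours in this order had overlapping intervals except EPAS1 and ARNT2, and the ARNT interval did not overlap those of EGLN2, HIF1AN, EPAS1 and ARNT2. The order is that of 1 library without replicate error.

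**Figure D3:**
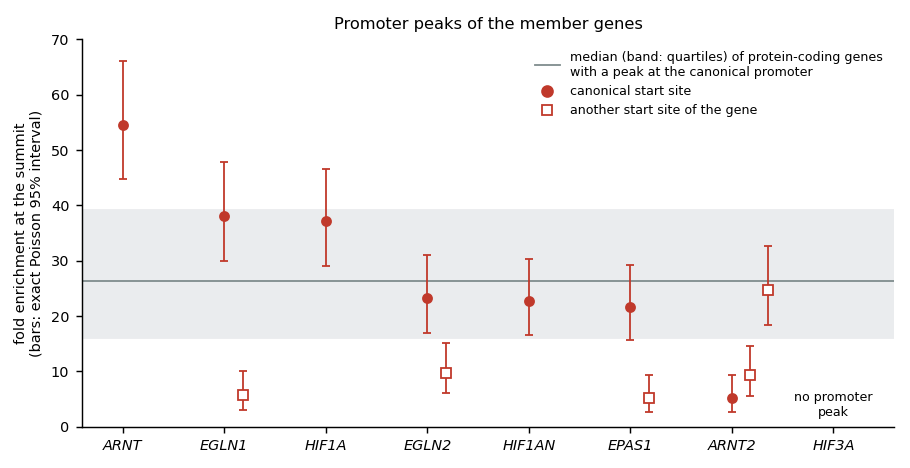
Fold enrichment of the promoter peaks of the 8 genes (y axis), ordered by the peak at the canonical TSS. Filled circles are canonical start sites, open squares other start sites of the same gene, bars exact Poisson 95% intervals, and the line and band the median and quartiles of protein-coding genes with a canonical promoter peak. ARNT lies above the band, ARNT2 has its canonical peak at 5.15 and its highest at another start site, and HIF3A has none.

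EPAS1, which encodes the α subunit that accumulates in these cells, lies on the plus strand at chr2:46293667-46386697, and its promoter peak (chr2:46296726-46298185, 1460 bp wide) was not its main feature. Its fold of 21.6 exceeded the highest promoter fold of 38.8% of protein-coding genes with a promoter peak, of 27.4% of those on chromosome 2 and of 14.7% of the 34 within 5 Mb, whose median was 34.5. A second, minor promoter peak of 5.15 (2.64 to 9.32) lay in intron 1, 801 bp upstream of the start of a shorter transcript.

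All 8 intragenic peaks of EPAS1 lay in intron 1, within the first 34.6 kb after the TSS. In order from the TSS their folds were 18.6, 13.9, 15.5, 62.3, 6.70, 22.2, 19.1 and 12.9. The fourth of these, at chr2:46314968-46315940 and 18.1 kb downstream of the TSS, had a fold of 62.3 (51.8 to 74.5), above 98.2% of all peaks and above the interval of the EPAS1 promoter itself. It was the tallest of the 104 peaks, and among protein-coding genes with an intragenic peak the tallest one was lower than this in 95.6%. Beyond the minor promoter peak, the last 51.8 kb of the gene held no summit. Among 5856 protein-coding genes of 30 to 100 kb, 2.92% had at least 8 intragenic peaks and the median was 1. These counts were not corrected for length, and EPAS1, at 93.0 kb, is near the upper end of that range. Per 10 kb of gene, its 0.860 intragenic peaks were above 87.5% of protein-coding genes.

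The intron 1 summit of EPAS1 is shown because it carried the highest fold at any of the 8 genes, together with the tallest distal summit, 67.8 kb upstream.
EPAS1 intron 1, chr2:46315449-46315549 (+ strand): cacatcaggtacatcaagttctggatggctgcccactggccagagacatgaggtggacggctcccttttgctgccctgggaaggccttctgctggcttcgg
EPAS1 upstream, chr2:46229540-46229640 (+ strand): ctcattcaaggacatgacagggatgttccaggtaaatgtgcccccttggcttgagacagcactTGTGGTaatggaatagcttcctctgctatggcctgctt
The intron 1 window held no match to the 10 motifs, and the upstream window held 1 RUNX match. The peaks are wider than these windows of 101 bp. Over its whole width the intron 1 peak held 2 AP-1 matches and 1 SP/KLF match. The whole upstream peak held 1 match each to the HIF core, SP/KLF, TEAD and RUNX.

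Upstream of EPAS1 the chromatin was open at 6 intergenic peaks. Counted towards the gene, their folds were 9.28, 34.5, 38.1, 27.3, 30.4 and 18.0. The first 4 stood between 81.0 and 64.3 kb upstream and the last pair at 28.2 and 23.2 kb, with no summit between these groups. For all but the outermost, EPAS1 had the nearest protein-coding TSS. The tallest, at chr2:46229047-46230783, had a fold of 38.1 (30.0 to 47.8), and its interval lay above that of the EPAS1 promoter. Downstream of the gene the 6 peaks were lower, from 5.67 to 11.9.

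HIF1A, the gene of the HIF-1α subunit, lies at chr14:61695513-61748259 on the plus strand and had the reverse arrangement, a tall promoter and few other peaks. The promoter peak (chr14:61694926-61696465, 1540 bp) peaked 181 bp before the TSS, outside the HIF1A record and inside that of HIF1A-AS1. Its fold of 37.1 was above the highest promoter fold of 71.2% of genes with a promoter peak, of 88.0% of those on chromosome 14 and of 80.4% of the 46 within 5 Mb, whose median was 23.4. One intragenic peak, of fold 10.8 (6.81 to 16.4), lay in intron 1, 6.6 kb downstream of the TSS, and the last 46.2 kb of the gene held no summit. At most 1 intragenic peak was found in 54.7% of genes of 30 to 100 kb, so a body with few summits was common in this list.

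The intron 1 window of HIF1A is shown because it held a match to the longer HIF form, TACGTG, beside an HNF1 match.
HIF1A intron 1, chr14:61702015-61702115 (+ strand): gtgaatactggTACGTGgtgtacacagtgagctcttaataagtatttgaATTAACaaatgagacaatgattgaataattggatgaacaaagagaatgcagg
TACGTG was found within 50 bp of 1.28% of all summits. The other 7 peaks of HIF1A were distal. The highest, of fold 20.1, was at the promoter of SNAPC1, the next gene downstream, and the other distal peaks ranged from 6.18 to 16.0. The HIF core lay within 50 bp of the summit in 7 of the 9 peaks of HIF1A, compared with 4 of 22 near EPAS1 and 16.0% of the whole list.

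HIF3A encodes the third α subunit, several of whose splice forms act as inhibitors of the other two. It lies at chr19:46297042-46343433 on the plus strand. No summit was found at any of its 16 distinct TSSs or anywhere in its 46.4 kb. In genes of 30 to 100 kb this was so for 651 of 5856 (11.1%, 95% interval 10.3 to 11.9), and over protein-coding genes of every length for 4809 of 20033 (24.0%). The nearest summit to a TSS lay 7606 bp upstream, with a fold of 9.79 (6.01 to 15.2). The base composition of the promoter, over 300 bp from 250 bp upstream, was that of many open promoters: GC was 68.3% and the ratio of observed to expected CpG was 0.762. These values were above those of 65.8% and 48.2% of protein-coding genes. Of 5709 protein-coding genes with both values at least as high, 78.4% had a promoter peak. HIF3A stood at the lower limit of that set, so this is not the share for promoters matched to it.

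Accessible sites did lie around HIF3A. The tallest of its 8 distal peaks (chr19:46271190-46272492), 24996 bp upstream and intergenic, had a fold of 35.6 (27.7 to 44.9). Another, of fold 24.2, lay 76.9 kb downstream of the TSS in the body of PPP5C, which encodes a protein phosphatase. The remaining 6 had folds from 5.15 to 14.9, and HIF3A had the nearest protein-coding TSS for 2 of the 8. The sequence just upstream of the HIF3A TSS is shown because no peak lay there although it carried HIF core matches, together with the summit of the tall upstream peak.
HIF3A before the TSS, chr19:46296941-46297041 (+ strand): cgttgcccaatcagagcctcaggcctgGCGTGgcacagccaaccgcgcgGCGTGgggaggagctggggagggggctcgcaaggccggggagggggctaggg
HIF3A upstream peak, chr19:46271996-46272096 (+ strand): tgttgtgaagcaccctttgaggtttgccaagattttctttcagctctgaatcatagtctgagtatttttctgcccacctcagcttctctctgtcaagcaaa
The window that ends at the TSS held 2 HIF core matches, and the upstream summit held none of the 10 motifs.

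The β subunits contrasted with each other. ARNT, the partner of every HIF α subunit and of the aryl hydrocarbon receptor, lies at chr1:150809713-150876708 on the minus strand. Its promoter peak (chr1:150875941-150877193, 1253 bp) was the tallest of the 7, at 54.6, and it exceeded the highest promoter fold of 87.1% of genes with a promoter peak on chromosome 1 and of 93.9% of the 132 within 5 Mb, whose median was 26.3. ARNT had only 1 intragenic peak, of fold 8.76 (5.23 to 13.9), which overlapped an exon near the 3′ end of the gene and also lay at the promoter of RNU6-1309P, a small RNA pseudogene. All 5 distal peaks were upstream, and for none of them was ARNT the nearest protein-coding TSS. The tallest pair, each of fold 22.2, lay 46.1 kb upstream in intergenic sequence and 49.6 kb upstream at the promoter of SETDB1, a histone methyltransferase, and the CERS2 promoter had a fold of 11.9.

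ARNT2, whose expression is known to be more restricted than that of ARNT, spans 193.6 kb at chr15:80404350-80597933 on the plus strand. The peak at its canonical promoter was among the lowest in the list: it had a fold of 5.15 (pileup of 9) and its summit lay upstream of ARNT2, inside the neighbouring gene ARNT2-DT and at a promoter of that gene too. Peaks at 2 internal start sites were higher. One, of fold 9.28 (5.62 to 14.5), lay 949 bp upstream of a TSS inside the gene. The other (chr15:80550140-80551082), of fold 24.7 (18.3 to 32.7), lay in intron 8, 146.1 kb downstream of the canonical TSS and 651 bp upstream of an internal TSS. Its interval did not overlap that of the canonical peak, and its fold was above the highest promoter fold of 53.2% of the 62 genes within 5 Mb, whose median was 22.2. Distance from a TSS is the only basis on which it is called a promoter peak.

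Peaks inside ARNT2 were many, 14 in all, and mostly shallow, with a median fold of 9.02. The tallest (chr15:80436332-80437715) had a fold of 32.5 at a pileup of 62 and lay in intron 1, 32.4 kb from the TSS. It was followed by peaks of 28.9 and 20.6, at 76.8 and 73.9 kb. Per 10 kb of gene, ARNT2 had 0.723 intragenic peaks, above 83.8% of protein-coding genes, and EPAS1 had 0.860, above 87.5%. The internal start site and the tallest intronic summit are shown because both exceeded the canonical promoter.
ARNT2 internal TSS, chr15:80550403-80550503 (+ strand): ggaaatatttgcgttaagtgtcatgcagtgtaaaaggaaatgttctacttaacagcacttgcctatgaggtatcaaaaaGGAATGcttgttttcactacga
ARNT2 intron 1, chr15:80436715-80436815 (+ strand): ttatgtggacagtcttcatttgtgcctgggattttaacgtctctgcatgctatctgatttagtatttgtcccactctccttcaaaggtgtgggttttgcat
The first window held 1 TEAD match and the second none of the 10 motifs. The 5 distal peaks of ARNT2 were low, from 5.15 to 11.9, and none had ARNT2 as its nearest protein-coding TSS.

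Among the hydroxylases, EGLN1 (PHD2), the main prolyl hydroxylase acting on HIF α subunits, resembled EPAS1 in having a tall intronic peak. It lies at chr1:231363751-231422287 on the minus strand, inside a longer gene model, ENSG00000287856, so a peak here cannot be assigned to one model or the other. The promoter peak (chr1:231420722-231422923) was 2202 bp wide, wider than the highest promoter peak of 91.1% of genes, with a fold of 38.1 (30.0 to 47.8). That fold was above the highest promoter fold of 72.8% of genes with a promoter peak and of 62.1% of the 58 within 5 Mb, whose median was 30.4. A minor peak of 5.67 (2.99 to 9.99) lay 81 bp upstream of another start site in intron 1. All 6 intragenic peaks lay in intron 1. The tallest (chr1:231395246-231397072), 26.6 kb downstream of the TSS, had a fold of 41.2 (32.7 to 51.2), and its interval overlapped that of the promoter. The next had a fold of 20.1 and the other 4 ranged from 5.67 to 7.73. With 1.02 intragenic peaks per 10 kb, EGLN1 stood above 90.5% of protein-coding genes.

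EGLN1 is itself known as a target of HIF. The sequence that ends at its TSS is shown because it held a TACGTG match, whose first base was 14 bp before the TSS, within the wide promoter peak, and the tall intronic summit is given with it.
EGLN1 before the TSS, chr1:231422288-231422388 (- strand): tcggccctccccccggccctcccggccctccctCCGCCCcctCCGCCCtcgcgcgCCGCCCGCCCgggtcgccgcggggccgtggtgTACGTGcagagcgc
EGLN1 intron 1, chr1:231395687-231395787 (- strand): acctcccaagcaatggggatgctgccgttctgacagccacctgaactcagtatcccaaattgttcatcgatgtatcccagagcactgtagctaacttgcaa
The other capitals in the first sequence are SP/KLF matches, some of which overlap, and the intronic summit held none of the 10 motifs. In RefSeq promoters of 300 bp (GRCh38.p14), from 250 bp before to 50 bp after the start, TACGTG was present in 3.33% of 27305 and in 1 of the 7 members listed, EGLN1. The HIF core was present in 48.4% of these promoters and in 5 of the 7 members. ARNT2 was not matched. The distal peaks of EGLN1 included one of fold 28.9 (21.9 to 37.4) at 90.2 kb upstream and one of 23.2 at the promoter shared by EXOC8 and SPRTN, and the other 5 ranged from 5.67 to 12.4.

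EGLN2 (PHD1), another prolyl hydroxylase, is a short gene of 9.44 kb at chr19:40798996-40808434 on the plus strand, in a gene-dense region. Its promoter peak (chr19:40798330-40799363) had a fold of 23.2, above the highest promoter fold of 42.7% of genes with a promoter peak and of 63.4% of the 175 within 5 Mb, whose median was 18.6. A second peak, of fold 9.79 (6.01 to 15.2), lay 114 bp upstream of an internal start site, and no other summit lay in the gene. Of its 6 distal peaks, 4 were at promoters of other genes: COQ8B (26.3 and 6.70), ACTMAP and SNRPA (27.3) and RAB4B (28.3), the last also being the start of the RAB4B-EGLN2 readthrough transcript. The remaining pair, downstream, had folds of 9.28 and 6.18.

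HIF1AN lies at chr10:100529072-100559998 on the plus strand. Its promoter peak (chr10:100535523-100536219) was narrow, 697 bp, wider than the highest promoter peak of 18.3% of genes, and had a fold of 22.7. That fold was above the highest promoter fold of 41.5% of genes with a promoter peak and of 35.6% of the 104 within 5 Mb, whose median was 33.5. An intragenic peak of fold 12.4 (8.03 to 18.3) lay upstream of the canonical TSS but inside the record of a longer transcript, at the promoter of NDUFB8, a subunit of respiratory complex I. The other intragenic peak, of fold 5.15, overlapped an exon. Among 10 distal peaks the highest were one of fold 24.7 at 54.3 kb upstream, in the body of WNT8B, and one of 22.2 at 26.2 kb downstream. SEC31B, a vesicle coat gene, had promoter peaks of 21.6 and 7.73 in the same reach.

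Motif matches were then counted over all 104 summits. The HIF core lay within 50 bp of 30 summits (28.8%), compared with 16.0% of the whole list. The genes were uneven: it was found in 7 of 9 peaks of HIF1A, 4 of 8 of EGLN2 and 5 of 13 of HIF1AN. The core was in 2 of 7 of ARNT, 3 of 15 of EGLN1, 4 of 22 each of EPAS1 and ARNT2, and 1 of 8 of HIF3A. At promoter peaks it was found in 2 of 12, where 27.8% of promoter peaks genome-wide had it, in 6 of 32 intragenic peaks, where the list had 13.9%, and in 22 of 60 distal peaks, where peaks outside protein-coding genes had 13.6%. Some of these distal peaks were at promoters of other genes. With promoters of every gene left out, it was found in 20 of 76 summits (26.3%), compared with 13.7% of peaks away from protein-coding promoters. Widening the window to 100 bp on each side gave 37 of 104 (35.6%) and 27.9% of the list, and over whole peaks, where the difference was smaller in proportion, 62 of 104 (59.6%) and 52.2%. The 104 peaks come from 8 loci of 1 library and 10 motifs were counted, so this is a description of these loci and no test was made. TACGTG was found within 50 bp of 4 summits (3.85%), compared with 1.28% of the list. These lay inside EPAS1, HIF1A and ARNT2 and upstream of HIF1AN, at folds of 6.70, 10.8, 5.15 and 5.15. Over whole peaks it was found in 9 of 104 (8.65%), compared with 7.80%.

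AP-1 was found within 50 bp of 13 of 104 summits (12.5%, compared with 15.7%). It lay within 50 bp of none of the 8 intragenic summits of EPAS1, where 17.0% of intragenic peaks of the list had it. This absence held for the 50 bp window only. With 100 bp on each side, AP-1 was found at the EPAS1 summits of fold 13.9, 22.2 and 12.9, and in 27.8% of intragenic peaks of the list. Over whole peaks the tallest, of fold 62.3, had it as well, with 2 matches, and 38.8% of intragenic peaks of the list had it. RUNX was found at 14 (12.6% of the list), TEAD at 10 (9.41%) and SP/KLF at 10 (8.45%). HNF1, named for a factor of kidney and liver epithelium, was found at 8 summits (7.69%), compared with 3.67% of the list, all of them away from promoters. With 100 bp on each side HNF1 was found in 12 (11.5%), compared with 7.24%. Over whole peaks the shares were alike, 21 of 104 (20.2%) and 20.1%. The CTCF motif was found at 1 (2.23% of the list), and the ETS and NRF1 strings at none (0.51% and 0.36% of the list).

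To place the 8 genes in their pathway, 21 further genes with known roles in it, listed with earlier results of these data known, were examined. A promoter peak was found at 17 of them (81.0%, 95% interval 58.1 to 94.6), an interval that includes the 61.4% of protein-coding genes, and 14 had one at the canonical transcript. Because the genes were chosen and not drawn at random, this interval and that of the bHLH-PAS factors below are only guides to small numbers. All 7 genes of prolyl hydroxylases and the VHL ubiquitin ligase had a promoter peak, with a median fold of 26.8. EGLN3 (PHD3), which is known to be induced by HIF, had a fold of 26.8 (20.1 to 35.1) and P4HTM, a transmembrane prolyl hydroxylase, one of 20.1 (14.4 to 27.4). VHL itself had a promoter peak of 24.2 (17.9 to 32.1), at a start site other than the canonical one. Of its partners, the scaffold CUL2 had a fold of 34.0, the RING subunit RBX1 27.8 and the adaptor ELOB 10.3. The CUL2 peak also lay at promoters of CREM and ENSG00000230534, and the ELOB peak at one of ENSG00000276791. The adaptor ELOC had 143.8 (127.4 to 161.6), above the highest promoter fold of 99.98% of genes with one, at a promoter it shares with TMEM70, and the median of promoter folds on its chromosome was 30.1.

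The coactivator genes EP300 and CREBBP had low promoter folds of 6.70 (3.71 to 11.3) and 12.9 (8.44 to 18.9), and CITED2, an inhibitor of the interaction of HIF with them, had 30.9 (23.7 to 39.7). The EP300 peak also lay at the promoter of MIR1281. Of 11 other bHLH-PAS factors, 7 (63.6%, 95% interval 30.8 to 89.1) had a promoter peak, a share close to the background. The highest were SIM1, a developmental factor, at 52.6 (42.9 to 63.8) and the clock gene BMAL1 at 44.8 (36.0 to 55.2). CLOCK had 29.9, NPAS2 13.4 and AHRR 8.76. AHR had 19.6 and NPAS1 10.8, each at a start site other than the canonical one. The BMAL1 peak also lay at a promoter of ENSG00000290083 and the CLOCK peak at one of ENSG00000272969. No promoter peak was found at BMAL2, NPAS3, NPAS4 or SIM2, and a peak below the lowest fold in the list, 5.15, would not have been seen.

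**Figure D4:**
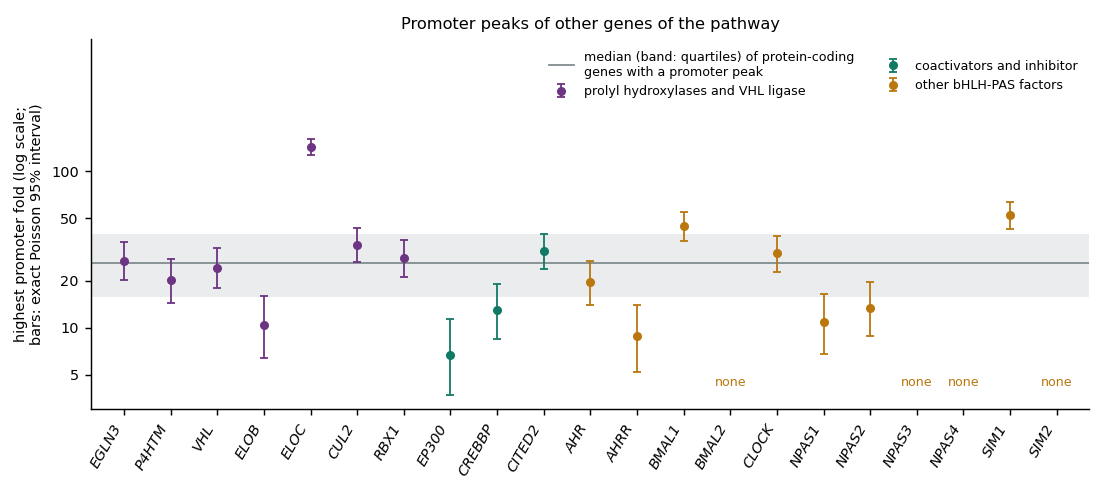
Highest promoter fold of 21 other genes of the pathway on a log axis, coloured by group, with exact Poisson 95% intervals as bars. The line and band are the median and quartiles of protein-coding genes with a promoter peak, and "none" marks the 4 genes without one. ELOC stands apart at 143.8, and all 4 genes without a peak are bHLH-PAS factors.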

How the data were processed

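ATAC-seq peaks of 1 empty-vector 786-O library were analysed. Per the study's methods, reads had been trimmed (fastp), mapped to hg38 (Bowtie2, version 2.3.4.3 in the submitters' processing notes), cleared of duplicates, mitochondrial reads and mapping qualities under 30, and used by the authors to call peaks with MACS2 (2.2.6) without a local background. No shift of reads for Tn5 is described. The deposited ratio is the fold enrichment at the summit, the deposited −log10 p-value and −log10 q-value are those of MACS2, and the score deposited with them is the −log10 q-value multiplied by 10 and truncated. Fold, p and q follow from the summit pileup (9 to 300). The lowest score was 52, and peak numbers run to 111260 for 88676 peaks, so the list was filtered after numbering. Peak names carry a WT tag, and the label (empty vector) was used. The total read number is unknown, and the background pileup was 0.941.

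Pileups were recovered from the folds (largest deviation from a whole number, 1.83e-05) and given exact Poisson 95% intervals. Because a summit is a maximum, its pileup is biased upward. Genes, transcripts and canonical transcripts came from GENCODE release 44. Percentiles are the share of peaks, or of genes by their highest promoter peak, with a lower value. Analysis used Python 3.11.15, numpy 2.4.6, scipy 1.17.1 and matplotlib 3.10.9, and the assignment of peaks was tested on simulated data. All members are named with every promoter peak and with their highest intragenic and distal peak, and other peaks by range or, for EPAS1, in full. The members, the pathway genes and the motifs were chosen with earlier results of these data known. The cell type markers and the comparisons with promoters within 5 Mb and with genes of 30 to 100 kb were added after the data were seen. Other libraries of the study were not analysed here.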

Additional observations from a re-analysis of the deposited data

How the results depend on the processing

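A promoter peak was found at 7 of 8 genes under all 5 alternatives of promoter window, start site and score minimum tried, and HIF3A gave no promoter fold under any of them. The 104 peaks became 64 with a reach of 25 kb, 51 with a score above 200 and 59 when only peaks with the member as nearest protein-coding TSS were kept. By gene, a score above 200 left 14 peaks for EPAS1, 5 for HIF1A, 3 for HIF3A, 7 for ARNT2, 6 for EGLN1, 4 for EGLN2 and 7 for HIF1AN, and the nearest-TSS rule left 5 for HIF1A, 2 for HIF3A, 1 for ARNT, 9 for EGLN1, 3 for EGLN2 and 5 for HIF1AN. The share of protein-coding genes with a promoter peak, 61.4%, became 65.7% with 1 kb to both sides of the TSS, 70.3% with 2.5 kb, 52.2% at the canonical transcript, 57.5% with a score above 100 and 52.05% with a score above 200. The share of genes without a summit was 24.0% over all lengths and 11.1% at 30 to 100 kb. At the canonical transcript the ARNT2 promoter fold fell to 5.15 from 24.7. No paired analysis was possible because 1 library alone was analysed. Counting intervals say nothing of variation between cultures, and neither the read depth nor the copy number of these loci was known.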
